A study of Homo sapiens with 6 samples.

Results

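Box C/D small nucleolar RNAs (SNORD genes) were followed in HepG2 cells, an established line from a human liver tumour (hepatocellular carcinoma in the labels). One group was kept for 24 h in DMSO, the solvent, and the other for 24 h in sorafenib, a kinase inhibitor drug whose targets include RAF and receptor tyrosine kinases such as those for VEGF. The dose is labelled 3 mM. Micromolar doses are usual in culture, so the unit may be wrong, and the files do not allow it to be checked. Each group had 3 BeadChip arrays, and both groups share the same line with no other agent named. Whether the arrays of a group hold separate cultures is not labelled. The p-values therefore reflect array-to-array spread only, and that spread may be technical.

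The members were selected on detection: they are the SNORD probes with a detection p under 0.05, which marks a signal above the array's background, on at least 3 of the 6 arrays. The platform lists 178 SNORD probes for 176 genes, and 50 probes for 50 genes passed, among 20120 probes for 11542 genes that passed in all. Of the members, 38 were detected on all 6 arrays and 121 of the 178 listed probes on none. Members were thus chosen by the detection p-values, which come from the same intensities as the difference between groups. SNORD110, SNORD114-7, SNORD125, SNORD34, SNORD73A and SNORD8 lay just inside the rule with detection on exactly 3 arrays, and SNORD4B just outside it with 2. SNORD34 and SNORD125 were detected on no control array and on all sorafenib arrays, so they passed only through the group where they were high and had to differ. Their differences are given as bounds and are not read as results. Counts over all 50 members still include them.

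Box C/D small nucleolar RNAs guide the methylation of the ribose in ribosomal RNA, and a few direct the cleavage of the ribosomal RNA precursor. In human cells most are cut out of introns of a host gene after splicing, while a few are transcribed from promoters of their own. Each is bound by the proteins FBL (fibrillarin, the methyltransferase), NOP56, NOP58 and SNU13, without which it is degraded. Many host genes code for ribosomal proteins, and others are long non-coding RNA genes. Mature C/D RNAs carry no poly(A) tail. The labels do not state how the labelled cRNA was primed, so the signal may come from mature RNAs, precursors or host introns, and these cannot be told apart here.

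Levels below are log2 values after background correction and quantile normalization, and differences are sorafenib minus control on that scale, with the moderated standard error of limma and n = 3 arrays per group. A probe was called at a Benjamini-Hochberg adjusted p under 0.05 over all 20120 probes. Levels of different probes are not compared, since probes bind with unequal strength. The arrays had mean intensities of 739 to 1050, and 19440 to 20138 of 47323 probes were detected per array. Pairs of arrays of the same group had correlations of 0.989 to 0.994, and pairs across groups of 0.977 to 0.986. Of the hepatocyte markers fixed for this work, 7 of 7 were detected on all arrays, among them ALB and AFP. Of 9 markers of blood, endothelial and stromal cells, 5 were detected on none, and CD14, CD68 and ACTA2 on all 6. Where RNA of cells is pooled, less RNA per cell and fewer cells with the RNA cannot be told apart.

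C/D small nucleolar RNA probes were mostly higher with sorafenib. Of 50 members, 18 rose (SNORD34 among them) and 1, SNORD13, fell in the limma fit, together 38% of them. Of all probes 16.7% were called, 7.27% higher and 9.45% lower. The median difference over the members was 0.39 beside 0.01 over all probes, and 42 of 50 lay above 0. All 3 sorafenib arrays exceeded all 3 control arrays for 24 members, which is 48% beside 19.2% of all probes, and all lay below them for 1 member, beside 19.8% of all probes. Without SNORD34 and SNORD125, 17 of 48 members rose and 1 fell, with a median difference of 0.39. All 3 sorafenib arrays then exceeded all 3 control arrays for 22 members. Among the 38 members detected on all 6 arrays, 16 rose and 1 fell. Both of these sets were counted after the data were seen. The count of members that rose was 10 of 50 without control replicate 2, and 12 to 16 when each other array was left out. Without background correction 19 members rose, but the median difference was 0.17 and the members that rose in the main fit differed by 0.25 to 0.68, which is 1.40 to 2.64 times smaller. The sizes given below rest on that correction, because most members were dim: their mean levels ran from 5.60 to 10.56, where the lowest level called detected on an array was 5.63 to 5.71.

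**Figure D1:**
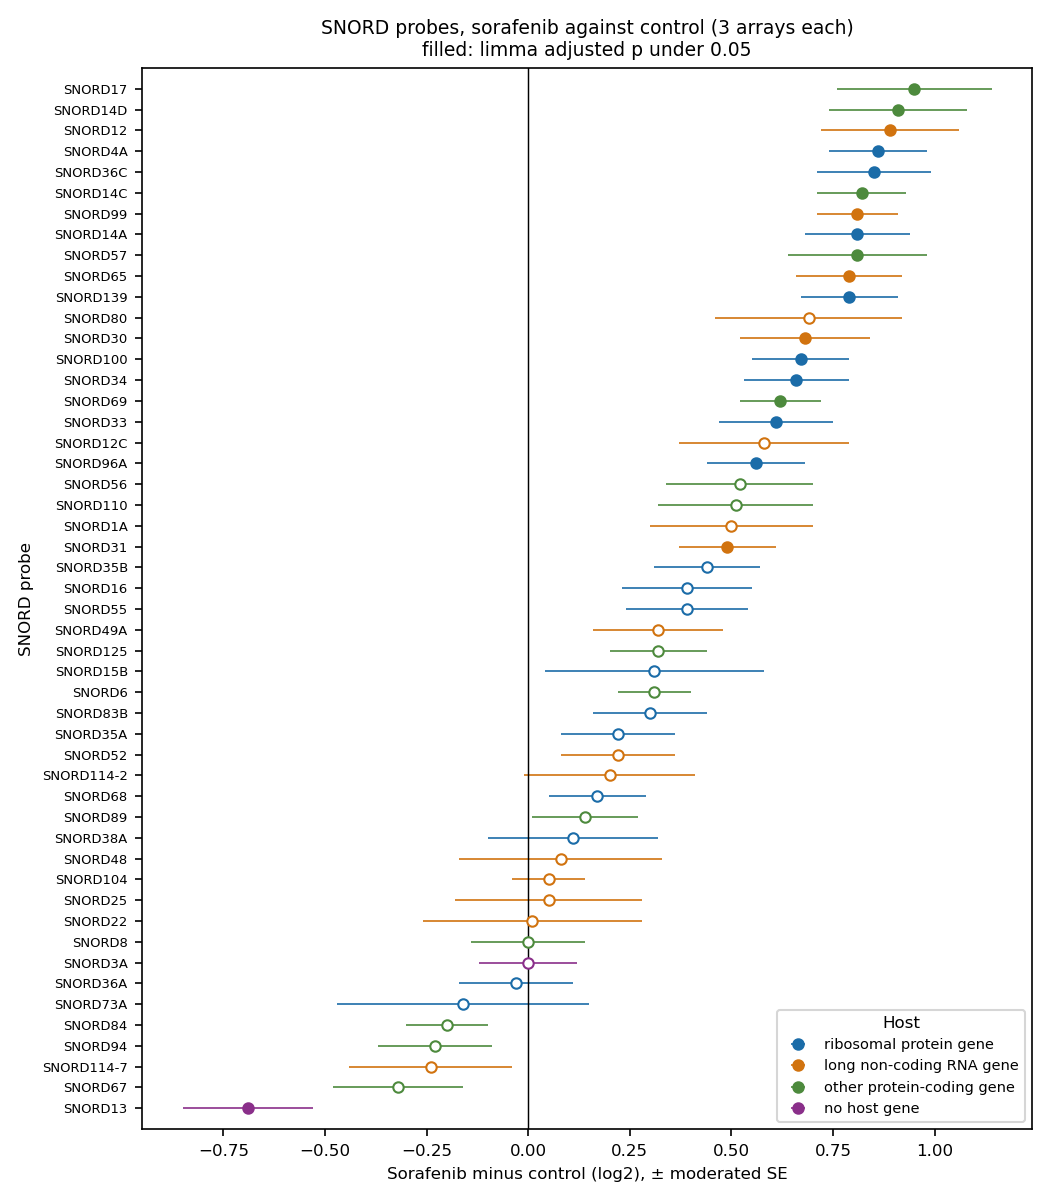
Difference between sorafenib and control on the log2 scale (x axis) for the 50 retained SNORD probes (y axis), with the moderated SE as bars and n = 3 arrays per group; colour marks the kind of host gene and filled points an adjusted p under 0.05. The filled points to the right are the 18 probes that rose, from 0.49 for SNORD31 to 0.95 for SNORD17, and the single filled point to the left is SNORD13 at -0.69. SNORD34 and SNORD125, detected on no control array, are drawn at their fitted differences and not at the lower bounds given in the text.

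By array, the number of SNORD probes detected was 45, 44 and 46 with control and 49, 50 and 47 with sorafenib. The median level over the members was 6.48, 6.53 and 6.55 on the control arrays and 6.87, 6.85 and 7.08 on the sorafenib arrays. The median of all retained probes was 8.43 on every array, as quantile normalization fixes it nearly. Sorafenib replicate 3 had the highest median of the members.

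**Figure D2:**
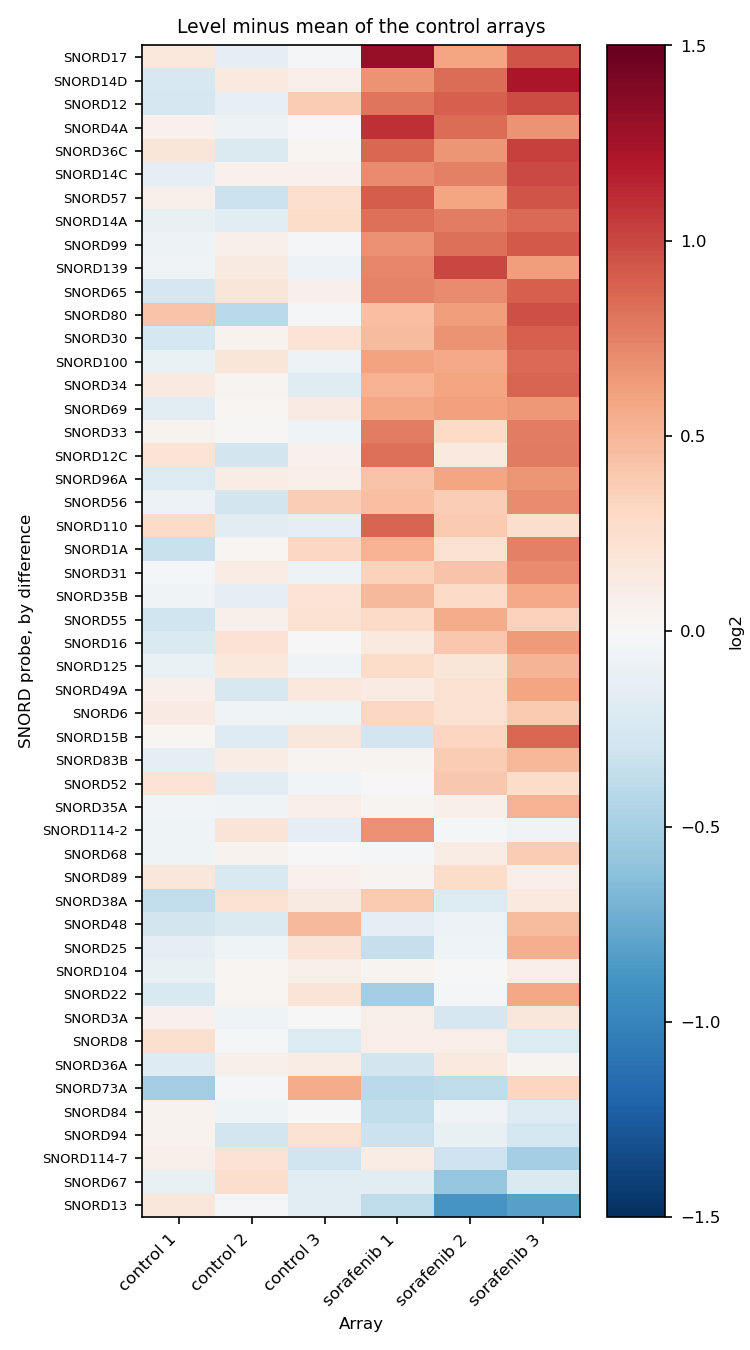
Level of each of the 50 SNORD probes (rows, ordered by difference) on each of the 6 arrays (columns) minus the mean of the 3 control arrays, in log2 units by colour. The upper rows are red on all 3 sorafenib arrays, and the lowest row, SNORD13, is blue on all 3.

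By position in the RefSeq gene table, 48 of the 50 members lie inside another gene, their host, and 33 distinct hosts were found. Of 18 members in genes of ribosomal proteins (RACK1, a protein of the small ribosomal subunit, among them), 8 rose, SNORD34 included, with a median difference of 0.42. Of 16 in long non-coding RNA genes, 5 rose, with a median of 0.41. Of 14 in other protein-coding genes, 5 rose, with a median of 0.42. None of these 48 fell. The other two, SNORD3A and SNORD13, have no host and are transcribed from promoters of their own.

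Several hosts belong to the class known for a 5′ terminal oligopyrimidine tract, a C followed by a run of C and T at the first transcribed base, which couples their translation to growth signals. The starts of hosts whose members rose are shown to let that tract be seen. The RefSeq promoter table (GRCh38.p14) holds 28 of the 33 hosts, 26 of them with 1 window. A C followed by at least 4 bases that are each C or T, beginning at the annotated start and read on the gene's strand, was found in 12 of these 26, or 46.2%, beside 4.07% of all 35116 windows. It stood in 8 of 13 hosts that hold a member that rose and in 4 of the 13 others. Whether the tract goes with a rise was not tested, and these sets also differ in their kinds of host. The 35116 windows were not limited to genes detected here. A run that begins off the annotated base was not counted, so a host without it here may still carry the tract. Each line gives 40 bases before and 20 from the annotated start, 5′ to 3′, and capitals mark the tract. RPL13A lies at chr19:49487568-49487627 on the plus strand, RPL7A at chr9:133348178-133348237 (plus), RPS12 at chr6:132814529-132814588 (plus), RPS13 at chr11:17077648-17077707 (minus), SNHG12 at chr1:28581854-28581913 (minus), ZFAS1 at chr20:49278602-49278661 (plus) and SNX5 at chr20:17968775-17968834 (minus). HSPA8 at chr11:123062117-123062176 (minus) and SNHG1 at chr11:62855866-62855925 (minus) also hold members that rose, and had no such tract at the annotated start. NOP56, RPL3 and SNHG29, not printed, had none either, and RACK1, not printed, had one.
RPL13A: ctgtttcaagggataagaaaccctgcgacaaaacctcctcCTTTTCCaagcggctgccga
RPL7A: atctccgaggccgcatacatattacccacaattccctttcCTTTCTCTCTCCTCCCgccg
RPS12: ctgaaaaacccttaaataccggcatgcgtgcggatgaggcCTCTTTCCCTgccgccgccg
RPS13: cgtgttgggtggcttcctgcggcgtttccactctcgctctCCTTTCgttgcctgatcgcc
SNHG12: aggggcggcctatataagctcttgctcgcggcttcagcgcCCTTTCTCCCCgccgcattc
ZFAS1: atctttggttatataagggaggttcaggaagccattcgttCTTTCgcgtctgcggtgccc
SNX5: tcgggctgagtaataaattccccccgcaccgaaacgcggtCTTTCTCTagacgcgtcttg
HSPA8: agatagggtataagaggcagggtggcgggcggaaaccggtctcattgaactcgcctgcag
SNHG1: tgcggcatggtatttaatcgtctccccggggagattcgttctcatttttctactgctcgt

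Within genes of ribosomal proteins, RPL13A carries 3 members. SNORD33 read 6.02, 5.98 and 5.90 on the control arrays and 6.73, 6.26 and 6.73 on the sorafenib arrays, and rose by 0.61 ± 0.14 (limma, adjusted p = 0.0307). The groups did not overlap, with sorafenib replicate 2 the lowest of its group. SNORD34 read 5.49, 5.40 and 5.17 against 5.87, 5.94 and 6.23. It did not exceed background on the control arrays, and its level was at least 1.29-fold higher with sorafenib, given as the sorafenib mean against, on each control array, the higher of its own value and the lowest detected level (limma, adjusted p = 0.0203, not read as a result because detection with sorafenib alone made it a member). SNORD35A read 5.72, 5.71 and 5.86 against 5.81, 5.84 and 6.28, and differed by 0.22 ± 0.14 (adjusted p = 0.334). Both SNORD33 and SNORD35A were detected on all 6 arrays and lie inside one gene, and the groups separated for the first and overlapped for the second. SNORD33 missed the threshold when any 1 array other than sorafenib replicate 2 was left out (adjusted p = 0.0736 to 0.0902). With no filter on dim probes and with array weights SNORD33 also missed it (adjusted p = 0.0537 and 0.0594).

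RPL7A carries SNORD36C and SNORD36A, 2 related copies that gave unlike values. SNORD36C read 6.02, 5.62 and 5.86 with control and 6.69, 6.49 and 6.86 with sorafenib, a rise of 0.85 ± 0.14 (limma, adjusted p = 0.0116). SNORD36A read 5.71, 5.98 and 6.02 against 5.63, 6.05 and 5.95, and differed by -0.03 ± 0.14 (adjusted p = 0.921). SNORD36C was detected on 2 control arrays and SNORD36A on 2 sorafenib arrays. The first rose on every sorafenib array above every control array, while the second overlapped fully. Probe sequences were not used here, so it was not tested whether the probe of one copy also binds the other.

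RPL3, which codes for a protein of the large ribosomal subunit, holds SNORD139 and SNORD83B. SNORD139 read 6.01, 6.20 and 5.98 with control and 6.80, 7.06 and 6.69 with sorafenib, and rose by 0.79 ± 0.12 (limma, adjusted p = 0.00918). SNORD83B read 7.04, 7.30 and 7.23 against 7.23, 7.57 and 7.69, with a difference of 0.30 ± 0.14 (adjusted p = 0.188). Here too one member separated the groups and its neighbour did not.

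A further 4 members of this class rose, each in a host with no other retained member. SNORD4A, in RPL23A, read 6.53, 6.38 and 6.47 with control and 7.55, 7.30 and 7.13 with sorafenib, and rose by 0.86 ± 0.12 (limma, adjusted p = 0.00696). SNORD14A, in RPS13, belongs to the U14 family, which takes part in cleavage of the ribosomal RNA precursor. It read 7.28, 7.22 and 7.66 against 8.21, 8.15 and 8.24, and rose by 0.81 ± 0.13 (adjusted p = 0.00991). SNORD100, in RPS12, read 6.32, 6.61 and 6.34 against 7.03, 6.99 and 7.27, and rose by 0.67 ± 0.12 (adjusted p = 0.0145). SNORD96A, in RACK1, read 6.46, 6.77 and 6.76 against 7.09, 7.26 and 7.33, and rose by 0.56 ± 0.12 (adjusted p = 0.0239). In each of the 4 the groups did not overlap. Leaving out control replicate 1 or 3 left SNORD100 uncalled (adjusted p = 0.0508 or 0.0501), and SNORD96A was called in only 1 of the fits on fewer arrays, that without sorafenib replicate 1 (adjusted p in the others 0.0506 to 0.0805). No other member of the class was called. Among them SNORD16 in RPL4 differed by 0.39, SNORD15B in RPS3 by 0.31, SNORD68 in RPL13 by 0.17 and SNORD73A in RPS3A by -0.16.

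Among long non-coding hosts, SNHG1 had 4 retained members, of which 2 were called. SNORD30 read 6.29, 6.60 and 6.76 with control and 7.02, 7.22 and 7.45 with sorafenib, and rose by 0.68 ± 0.16 (limma, adjusted p = 0.0319). SNORD31 read 7.93, 8.07 and 7.88 against 8.30, 8.39 and 8.67, and rose by 0.49 ± 0.12 (adjusted p = 0.0348). Both separated the groups. SNORD25 read 6.75, 6.82 and 7.07 against 6.54, 6.81 and 7.43, and SNORD22 read 6.37, 6.62 and 6.79 against 6.08, 6.56 and 7.17. Their differences were 0.05 ± 0.23 and 0.01 ± 0.27 (adjusted p = 0.903 and 0.986), and in both sorafenib replicate 1 was the lowest of the 6 arrays and sorafenib replicate 3 the highest. SNORD30 missed the threshold with no filter (adjusted p = 0.0552) and without control replicates 1 and 2 or sorafenib replicates 2 and 3 (adjusted p = 0.0783, 0.0828, 0.0905 and 0.0726). SNORD31 missed it when replicate number was a block (adjusted p = 0.0506), with median scaling (adjusted p = 0.088), with no filter (adjusted p = 0.062) and in every fit without 1 array except that without sorafenib replicate 1 (adjusted p = 0.0627 to 0.0992).

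ZFAS1 holds SNORD12 and SNORD12C. SNORD12 read 7.14, 7.27 and 7.78 with control and 8.20, 8.29 and 8.38 with sorafenib, and rose by 0.89 ± 0.17 (limma, adjusted p = 0.0178). SNORD12C read 6.50, 6.02 and 6.35 against 7.12, 6.44 and 7.07, a difference of 0.58 ± 0.21 (adjusted p = 0.109, but 0.0193 when replicate number was a block). The SNORD12C groups overlapped through control replicate 1 and sorafenib replicate 2. Without the latter the difference was 0.80 (adjusted p = 0.0434), and without any other array it was 0.45 to 0.69 and not called (adjusted p = 0.128 to 0.266). SNORD12 was not called (adjusted p = 0.0508 and 0.065) when the first or the second control array was left out, nor (adjusted p = 0.0601) without sorafenib replicate 2.

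In SNHG29, SNORD65 read 6.64, 7.08 and 6.97 with control and 7.64, 7.61 and 7.79 with sorafenib, and rose by 0.79 ± 0.13 (limma, adjusted p = 0.0115). SNORD49A read 6.43, 6.12 and 6.52 against 6.48, 6.59 and 6.95, a difference of 0.32 ± 0.16 (adjusted p = 0.222), and its groups overlapped. SNORD99, in SNHG12, had the lowest adjusted p of the members. It read 7.66, 7.83 and 7.72 against 8.42, 8.56 and 8.66, and rose by 0.81 ± 0.10 (adjusted p = 0.00419). SNHG32 holds SNORD52, which read 7.38, 7.02 and 7.14 against 7.17, 7.59 and 7.45, and SNORD48, which read 6.98, 7.04 and 7.74 against 7.11, 7.17 and 7.73. Neither was called (differences 0.22 and 0.08).

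MEG8, a non-coding gene of an imprinted cluster, holds a large family of C/D RNAs with no known ribosomal target, of which only 2 were retained. SNORD114-2 read 6.01, 6.26 and 5.94 with control and 6.76, 6.04 and 6.02 with sorafenib, where replicate 1 alone was high. SNORD114-7 read 5.83, 5.97 and 5.46 against 5.87, 5.44 and 5.24. Their differences of 0.20 and -0.24 were not called (limma, adjusted p = 0.559 and 0.455). Of the remaining members in long non-coding hosts, SNORD80 in GAS5 differed by 0.69 ± 0.23 (adjusted p = 0.0869) and SNORD1A in SNHG16 by 0.50 ± 0.20 (adjusted p = 0.134). SNORD104 in SNHG25 differed by 0.05 ± 0.09 (adjusted p = 0.747). The SNORD80 groups did not overlap, although control replicate 1 lay at 6.55 and sorafenib replicate 1 at 6.57.

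Other protein-coding hosts held the 2 members with the largest differences, SNORD17 and SNORD14D. SNORD17, in the sorting nexin gene SNX5, read 7.86, 7.57 and 7.67 with control and 9.01, 8.29 and 8.64 with sorafenib, and rose by 0.95 ± 0.19 (limma, adjusted p = 0.0189), a 1.93-fold change. HSPA8, the constitutive cytosolic chaperone gene, holds 2 further U14 copies. SNORD14D read 6.71, 7.10 and 7.05 against 7.63, 7.79 and 8.18, and rose by 0.91 ± 0.17 (adjusted p = 0.0166). SNORD14C read 7.24, 7.44 and 7.44 against 8.08, 8.13 and 8.36, and rose by 0.82 ± 0.11 (adjusted p = 0.00605). With SNORD14A, all 3 retained U14 copies rose, by 0.81 to 0.91, although they lie in 2 hosts. As near copies they may share signal, which was not tested. SNORD17 was not called when control replicate 2 or 3 was left out (adjusted p = 0.0676 or 0.0605) and SNORD14D without sorafenib replicate 2 (adjusted p = 0.0514).

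SNORD69, in the nucleolar GTPase gene GNL3, read 6.22, 6.41 and 6.50 with control and 6.96, 6.99 and 7.03 with sorafenib, and rose by 0.62 ± 0.10 (limma, adjusted p = 0.00975). NOP56, itself a protein of every C/D particle, hosts 3 members. SNORD57 read 7.41, 7.01 and 7.59 against 8.25, 7.93 and 8.28, and rose by 0.81 ± 0.17 (adjusted p = 0.0236). SNORD56 read 8.85, 8.66 and 9.30 against 9.39, 9.30 and 9.65, and SNORD110 read 5.65, 5.21 and 5.23 against 6.24, 5.76 and 5.63. Those 2 differed by 0.52 ± 0.18 and 0.51 ± 0.19 and were not called (adjusted p = 0.0985 and 0.12), but passed when replicate number was a block (adjusted p = 0.024 and 0.0187). SNORD57 was not called in the fits that left out control replicate 1 or 2, or sorafenib replicate 1 or 3 (adjusted p = 0.0598, 0.0539, 0.0699 and 0.0612). The other 7 members in this kind of host were not called. For SNORD125 the lower bound, formed as for SNORD34, was 1.13-fold. That bound makes no allowance for the spread between arrays, and the limma fit left SNORD125 uncalled (adjusted p = 0.115). The other 6 lay between -0.32 for SNORD67 and 0.31 for SNORD6. SNORD6 in TAF1D, a factor of RNA polymerase I, differed by 0.31 ± 0.09 (adjusted p = 0.0636), and SNORD67 and SNORD94, which guide modification of a spliceosomal RNA rather than ribosomal RNA, by -0.32 and -0.23 (adjusted p = 0.225 and 0.313).

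**Figure D3:**
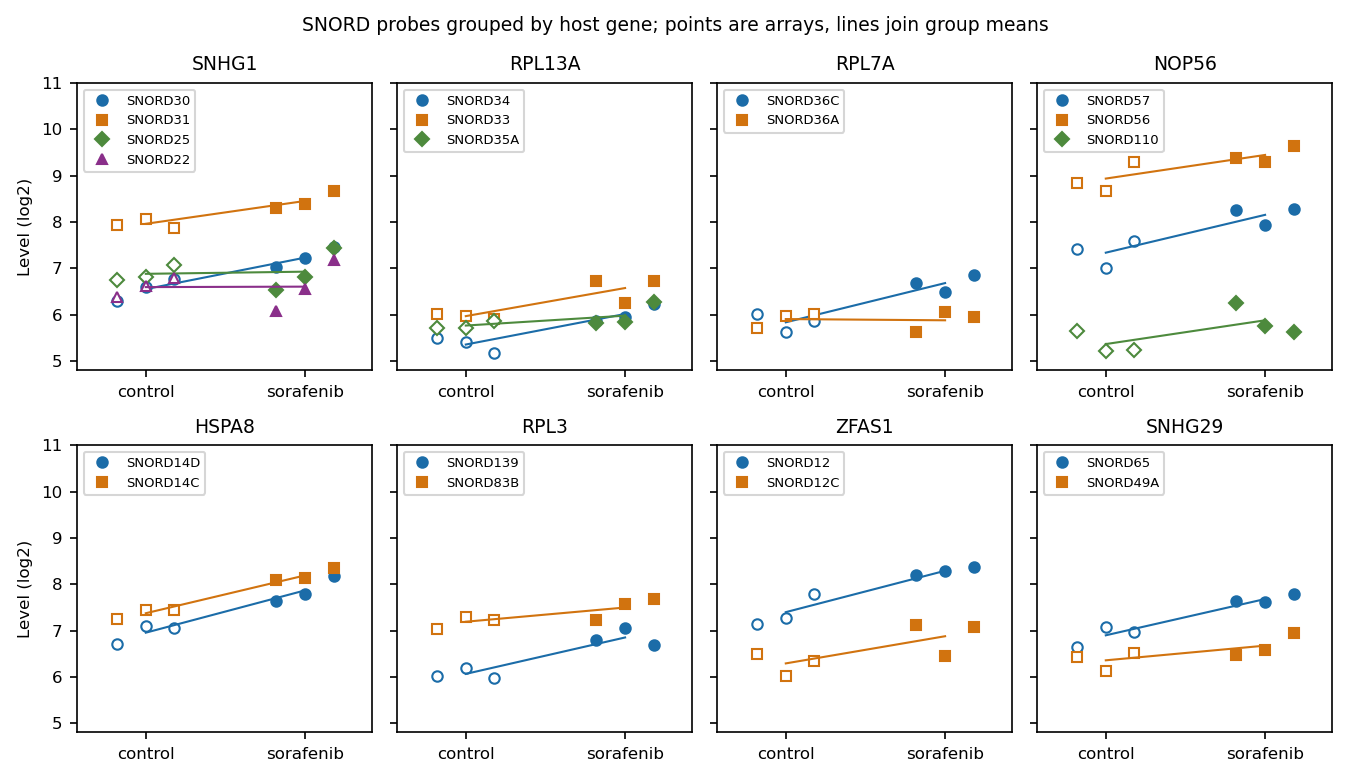
Level of each SNORD probe on each array (y axis, log2; open points control, filled points sorafenib, 3 arrays each) in the 8 hosts that hold 2 or more retained members of which at least 1 rose; lines join the group means. SNORD36C climbs from a mean of 5.84 to 6.68 while SNORD36A stays at 5.90 and 5.88, and SNORD30 and SNORD31 climb while SNORD25 and SNORD22 run flat.

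The 2 members with their own promoters differed from each other. SNORD13, which guides acetylation of the small-subunit ribosomal RNA, read 9.75, 9.56 and 9.42 with control and 9.20, 8.69 and 8.76 with sorafenib, and fell by 0.69 ± 0.16 (limma, adjusted p = 0.0303). All sorafenib arrays lay below all control arrays. SNORD3A, one of the near-identical U3 genes, whose RNA is needed for the first cleavages of the ribosomal RNA precursor, read 7.87, 7.74 and 7.81 against 7.89, 7.56 and 7.98. It differed by 0.00 ± 0.12 (adjusted p = 0.988). The probes of SNORD3C and SNORD3D were detected on 0 arrays, and which U3 copies the SNORD3A probe reads was not tested. SNORD13 missed the threshold with no filter (adjusted p = 0.0521) and in every fit without 1 array except that without sorafenib replicate 1 (adjusted p = 0.0551 to 0.0946), so no member passed downward in those fits.

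Members of one host were then compared with each other. The 11 hosts with at least 2 members hold 26 members and give 20 pairs, and each pair was tested by an exact two-sided permutation test of the array-wise log2 difference between its members. With 3 against 3 arrays the smallest p is 0.1, so no pair can pass a threshold of 0.05. The 8 pairs that reached this value had non-overlapping groups, and their adjusted p was 0.25. One of them holds SNORD34, and without it 7 of the 18 pairs whose members were detected in both groups did not overlap. SNORD36C exceeded SNORD36A in its response by 0.87. SNORD30 exceeded SNORD22 by 0.67 and SNORD25 by 0.63, whereas SNORD31, 0.48 and 0.44 above the same members, overlapped with both (exact permutation p = 0.2, adjusted 0.364), and SNORD30 and SNORD31 overlapped with each other (p = 0.4). The response of SNORD139 exceeded that of SNORD83B by 0.49, SNORD33 exceeded SNORD35A by 0.39, SNORD114-2 exceeded SNORD114-7 by 0.44 and SNORD57 exceeded SNORD56 by 0.30. Between 2 probes of one gene, taken over 2988 genes as the second brightest against the brightest probe, the groups failed to overlap in 16.4%. Members of a host are different RNAs, so this share is not a matched background for them. Members with close responses were SNORD14D and SNORD14C, 0.10 apart (exact permutation p = 0.5), and SNORD56 and SNORD110, 0.00 apart (p = 1). SNORD110 and SNORD114-7 were detected on only 3 arrays, so the comparisons that hold them rest on values near background.

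Probes of the host genes were called about as often as probes in general, 13.9% beside 16.7%. Of the 33 hosts, 24 had a retained probe, 7 had no listed probe and 2, GAS5 and MEG8, had a listed probe that did not pass. Over their 36 retained probes, 4 rose and 1 fell, beside 7.27% and 9.45% of all probes, and their median difference was 0.02. The 4 were the 3 probes of NOP56, whose brightest rose by 0.41 ± 0.10 (limma, adjusted p = 0.0367), and SNHG12, which rose by 0.38 ± 0.10 (adjusted p = 0.0426). SNHG32 fell by 0.38 ± 0.09 (adjusted p = 0.03). The brightest NOP56 probe and SNHG12 missed the threshold whichever array was left out (adjusted p up to 0.111 and 0.129), and both also missed it with median scaling (0.0872 and 0.171) and with no filter (0.0666 and 0.0779). SNHG12 further missed it without background correction, with an offset of 50, on the authors' values and with trend and robust (adjusted p = 0.0513 to 0.0795). SNHG32 missed it with median scaling (adjusted p = 0.262), with no filter (0.0556) and in every fit without 1 array but that without control replicate 3 (adjusted p up to 0.0997). The host counts were then 1 to 2 upward and 0 to 1 downward. No ribosomal protein host was called, with RPL7A at 0.03, RPS12 at 0.02, RPS13 at 0.00, RPL23A at -0.06, RPL3 at -0.11, RPL13 at -0.13 and RPL13A at -0.22. For the last 3 all sorafenib arrays lay below all control arrays. The probes of RPL13 disagreed, since its dimmer one differed by 0.46 with all sorafenib arrays above the controls (limma, adjusted p = 0.111). Several of these probes were among the brightest on the array (RPS12 15.70 with control, where the highest level was 15.88), and a bright probe may understate a change.

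Setting each SNORD probe against its host's brightest probe gave 36 pairs. The 2 signals' log2 ratio on each array was formed, and only its change between groups is read. That change was above 0 in 28 pairs, with a median of 0.41 (0.21 without background correction). The sorafenib arrays exceeded the control arrays in 19 pairs, or 52.8%. The share was 9.44% for the second brightest against the brightest probe over 2988 genes, and 19.2% for single probes. Probes of the same gene read the same gene, whereas a member and its host are different RNAs, so 9.44% is not a matched background. Without SNORD34 and SNORD125, the sorafenib arrays exceeded the control arrays in 18 of 34 pairs, with a median of 0.41. The members already called carry much of this count. Leaving out SNORD34 and SNORD125, 13 of 14 pairs of a member that rose had higher sorafenib arrays, with a median of 0.73, where the choice of risen members favours that direction. Of the other 20 pairs 5 did, with a median of 0.17, and 1 pair was lower. For SNORD12 over ZFAS1 the log2 ratio was -5.64, -5.60 and -4.90 with control and -4.32, -4.36 and -4.03 with sorafenib. The change was 1.14 (exact permutation, two-sided, p = 0.1, the smallest possible, and 0.18 adjusted over the 36 pairs), and ZFAS1 itself differed by -0.25. SNORD17 relative to SNX5 moved by 0.98, SNORD4A relative to RPL23A by 0.92 and SNORD139 relative to RPL3 by 0.90, each with the same p. SNORD52 relative to SNHG32 moved by 0.60, where the host fell and the member was not called. Within NOP56 the changes were smaller: SNORD56 and SNORD110 each gave 0.11 (exact permutation p = 0.5 and 0.6) and SNORD57 gave 0.41. SNORD84 was the only pair whose sorafenib arrays all lay lower, by -0.49 relative to DDX39B.

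**Figure D4:**
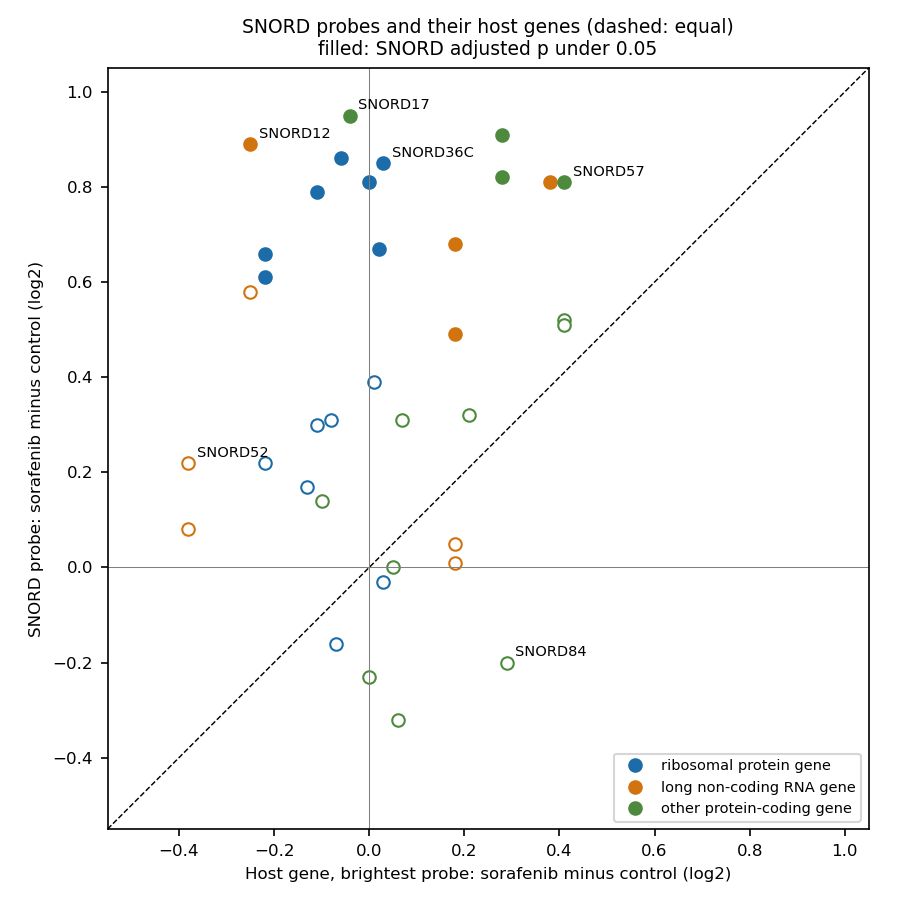
Difference between sorafenib and control (log2) of 36 SNORD probes (y axis) against that of the brightest probe of their host gene (x axis), coloured by kind of host; filled points are SNORD probes that passed an adjusted p of 0.05, and the dashed line marks equal differences. SNORD12, at the upper left, differs by 0.89 where its host ZFAS1 differs by -0.25. SNORD84, below the line, differs by -0.20 where DDX39B differs by 0.29. SNORD34 and SNORD125, detected on no control array, are drawn at their fitted differences and not at the lower bounds given in the text.

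The proteins that make C/D particles were examined as a list of 24 genes, each taken by its brightest probe, and all 24 were tested. Of these, 5 rose, beside 8.44% of 11542 genes that rose when each is taken by its brightest probe. The number that fell was 0, beside 9.45% of all probes. The median difference over the list was 0.22. Among the 4 core proteins, FBL read 12.35, 12.44 and 12.32 with control and 12.79, 12.70 and 12.63 with sorafenib, and rose by 0.33 ± 0.08 (limma, adjusted p = 0.0392). NOP58 read 11.65, 11.84 and 11.78 against 12.18, 12.14 and 12.29, and rose by 0.45 ± 0.09 (adjusted p = 0.0199). NOP56 rose by 0.41, as given above. SNU13 read 12.37, 12.38 and 12.29 against 12.54, 12.54 and 12.68, a difference of 0.23 ± 0.08 (adjusted p = 0.0999). In each of the 4 all sorafenib arrays lay above all control arrays, as they did for 19.2% of all probes. The probes of SNU13 disagreed, since its dimmer ones differed by -0.22 (adjusted p = 0.11) and 0.79 (adjusted p = 0.0195).

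Of 8 assembly factors, RUVBL1, an ATPase of the complex that loads the core proteins, rose by 0.42 ± 0.09 (limma, adjusted p = 0.0259), and 0 fell. Its partner RUVBL2 differed by 0.33 ± 0.10 (adjusted p = 0.0636). Of 6 genes of transport and cap modification, NOLC1, a nucleolar and Cajal body phosphoprotein that binds these particles, read 10.16, 10.35 and 10.22 with control and 10.90, 11.01 and 11.05 with sorafenib, and rose by 0.74 ± 0.09 (adjusted p = 0.00419). The 6 genes of intron release and trimming, among them the lariat debranching enzyme gene DBR1 and the exosome nuclease gene EXOSC10, gave no call and a median of 0.05. The list's count upward ranged from 1 to 2 when 1 array was left out: FBL missed the threshold in all 6 such fits (adjusted p = 0.0565 to 0.11), NOP58 in all but that without control replicate 2 (adjusted p = 0.0535 to 0.0606), and RUVBL1 in all but that without sorafenib replicate 1 (adjusted p = 0.0564 to 0.0738). NOLC1 passed in each. With median scaling NOLC1 alone passed, and without background correction 11 genes did.

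**Figure D5:**
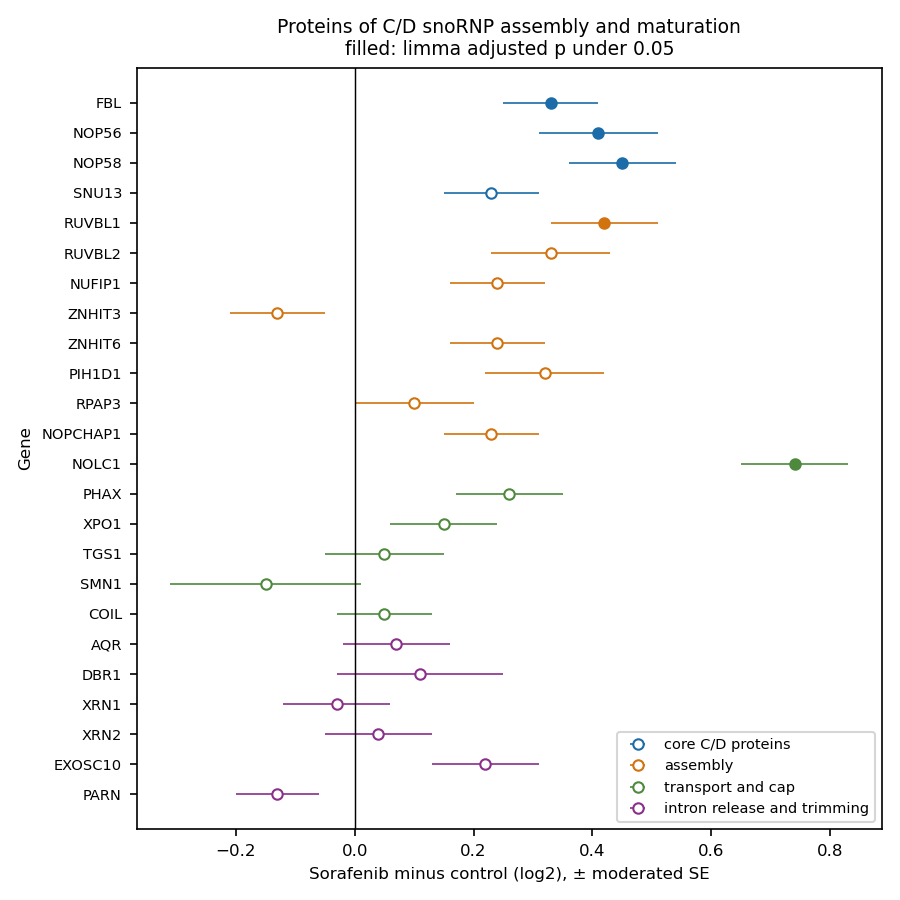
Difference between sorafenib and control on the log2 scale (x axis, with the moderated SE and n = 3 arrays per group) for 24 genes of C/D particle assembly and maturation (y axis), coloured by role; filled points passed an adjusted p of 0.05. The 5 filled points are FBL, NOP56, NOP58, RUVBL1 and NOLC1, the last at 0.74.

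The other large class of small nucleolar RNAs, the H/ACA probes (SNORA), which guide pseudouridylation, gave similar counts. Of 52 retained probes, 21 rose and 1 fell, with a median of 0.45. Those that rose were 40.4%, beside 7.27% of all probes, while 9.45% of all probes fell. Whether any H/ACA probe passed the filter only through the sorafenib arrays was not examined. The difference between the 2 classes was not tested.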

How the data were processed

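Biotin-labelled cRNA made from HepG2 RNA was hybridised to Illumina BeadChips, per the labels' protocols. The authors deposited a probe intensity and a detection p-value for each of 47323 probes on each of 6 arrays. Per the file headers these intensities were not normalized. The authors' deposited log2 values equal quantile-normalized log2 intensities within 5.00e-07, and were an alternative.

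Groups came from the sample titles. Intensities were background-corrected with limma's neqc (normexp, negative controls inferred from detection p, offset 16), quantile normalized and log2 transformed. Detection p under 0.05 on at least 3 arrays left 20120 probes. The fit runs over probes because the members are probes. Limma's lmFit and eBayes compared the groups, two-sided, with Benjamini-Hochberg adjustment. Bounds, exact permutation tests and the motif search are described where used. The members and lists were chosen with earlier results of these data known. Symbols came from the platform table (1 symbol for 30113 probes, several for 8, none for 17202). Of the named probes, 30074 matched a RefSeq table of GRCh38.p14 and 0 symbols changed. Hosts are genes that span a SNORD gene in that table, which gives no strand. Of the hosts written down by hand, 40 matched and 1 did not, so SNORD8 was moved to CHD8. The named members are those called and those sharing a host, and others were named after their values were seen. Some hosts and the members they hold are counted but not reported here.

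Titles number the arrays 1 to 3 in both groups. Deviations from the group means correlated at 0.273, 0.237 and 0.315 between arrays of equal number and at -0.289 to 0.0286 between unlike ones. Those of equal number were above the limit of 0.1, so the numbers may pair arrays, judged from these data alone. The main fit and the exact permutation tests did not use this pairing. It entered only as an alternative fit with replicate number as a block, in which 21 members rose. The number of arrays limits the precision. The fit was tested on simulated data. R 4.3.3, limma 3.58.1, Python 3.11.15 and matplotlib 3.10.9 were used.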

Additional observations from a re-analysis of the deposited data

How the results depend on the processing

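Of the 19 calls among the members, 8 (SNORD4A, SNORD36C, SNORD14C, SNORD14A, SNORD99, SNORD139, SNORD65 and SNORD69) passed in every one of the settings in which they were measured, and 0 calls changed direction; uncalled members near 0 changed sign in places. The number of members that rose was 15 to 21 in the settings that keep all arrays, 21 with the replicate number as a block, 15 with no filter and 10 to 16 leaving out 1 array. The number that fell was 0 with no filter and 0 to 1 leaving out 1 array. Their median was 0.17 without background correction, 0.21 with normexp on regular probes and an offset of 50, 0.18 on the authors' values and 0.04 with no filter, where all 178 probes enter. Leaving out 1 array gave medians of 0.35 to 0.44. Over all probes, 734 rose and 1119 fell with median scaling, 915 rose with no filter, and 543 to 917 rose and 877 to 1412 fell leaving out 1 array. Host probes that rose numbered 2 with median scaling, 1 with no filter, 2 with the mean of a gene's probes and 1 to 2 leaving out 1 array, and those that fell 0 with median scaling, 0 with no filter, 3 with trend and robust together and 0 to 1 leaving out 1 array. C/D particle genes that rose numbered 11 without background correction, 1 with median scaling, 9 on the authors' values, 3 with no filter, 8 with the mean of a gene's probes, 11 with trend and robust, 9 with array weights and 1 to 2 leaving out 1 array. The block changed the calls of SNORD31, SNORD12C, SNORD56 and SNORD110 given above and of 1 member not described here, and no other call of a member. The SNORD minus host median lay between 0.21 without background correction and 0.53 without sorafenib replicate 1. The causes were not tested. Fits on fewer arrays have fewer degrees of freedom, and their estimates moved as well. Members near the detection limit have the least certain sizes.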
